A study of Mus musculus with 6 samples.

Results

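The 7 genes Scn4b, Scn3b, Hcn2, Hcn4, Gja1, Gja5 and Gjc1 were taken by their symbols from a table of 54532 genes measured by RNA sequencing in mouse hearts, and all 7 had values. They encode auxiliary subunits of sodium channels, pacemaker channels and connexins. The comparison was between WT and Mc4r KO mice of 12 weeks, and each group had hearts from 3 mice with 1 library each. The Mc4r KO mice were homozygous for a knockout of the melanocortin-4 receptor, with no restriction to a tissue described. They were bred from heterozygous parents on a C57B/6/N background, and the WT mice were littermates from the same matings. The receptor is best known from the hypothalamus, so effects within the heart and effects of the rest of the body cannot be told apart. The labels give the tissue as heart in one field and as muscle in the sample titles, and the paper's discussion names left ventricle as the tissue sequenced.

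Each heartbeat begins in pacemaker cells of the sinoatrial node, where hyperpolarization-activated channels of the HCN family carry an inward current between beats. The impulse then spreads through atrial muscle, the conduction system and ventricular muscle by means of voltage-gated sodium channels, which open within each cell, and gap junctions made of connexins, which pass current between cells. Sodium channels consist of a pore-forming alpha subunit and smaller beta subunits that change its gating and its number at the membrane.

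The values are FPKM, a fragment count divided by the length of the gene and by the size of the library, so levels of different genes are compared here per length. The reads behind each value were recovered from the FPKM and the gene length, and all values came out whole. The total on genes was between 14767929 and 16047003 reads per WT library and between 14691076 and 15649074 per Mc4r KO library. For a transcript of 1 kb, 3 reads amounted to 0.176 to 0.213 FPKM, depending on the library. The groups were compared with limma on log2(FPKM + 0.1) over 18035 genes whose mean FPKM was 0.1 or more. A call required an adjusted p below 0.05 together with a log2 fold change beyond 0.75 in either direction. The added 0.1 shrinks the fold changes of weakly expressed genes. The targeted gene, Mc4r (ENSMUSG00000047259), was read 2 times in WT replicate 3 and 0 times elsewhere, which is below a floor of 3 reads, so it gave no check of the genotype.

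The libraries differed in their content of atrial RNA before any comparison of genotypes. Myl7, the atrial regulatory myosin light chain, had FPKM of 0.24, 28.1 and 307 in WT replicates 1 to 3 and of 38.8, 0.558 and 0.528 in Mc4r KO replicates 1 to 3. Values of 3 libraries are given in this order throughout. Sln, which encodes sarcolipin of the atrial sarcoplasmic reticulum, was at 0, 8.35 and 68.8 in WT and at 8.99, 0 and 0 in Mc4r KO. WT replicate 3 thus stood apart, WT replicate 2 and Mc4r KO replicate 1 lay between, and the other 3 libraries were near 0 for both genes. Bmp10, a growth factor of atrial muscle, reached 50.4 in WT replicate 3 and at most 0.215 in the others. None of the 12 atrial markers was called, with 1 higher and 1 lower in Mc4r KO without overlap. Their summed FPKM were 235, 363 and 1069 in WT and 389, 245 and 301 in Mc4r KO, with Clu, which other cells also express, as the most abundant gene and no marker at 0 in all libraries. Ventricular markers differed widely in level. Myl2, the ventricular regulatory light chain, was high in every library, at 2003, 2065 and 2153 FPKM in WT and at 2224, 2196 and 2400 in Mc4r KO (limma adjusted p = 0.600). Hey2, on the same list, was only at 0.760 to 1.33 FPKM. The summed FPKM of the 8 ventricular markers were 5724, 6044 and 5509 in WT and 6255, 6438 and 6361 in Mc4r KO, without overlap. None of the 8 was called, with 2 (Myl2 and Ckmt2) higher and 1 (Kcnip2) lower in Mc4r KO without overlap, beside 14.1% and 12.4% of all genes tested. Skeletal muscle markers were low apart from Ckm, a creatine kinase that heart muscle also uses, and Myh4 and Tnnc2 were at 0 in all 6 libraries. Results are therefore also given without WT replicate 3. That library was also the WT library nearest to Mc4r KO in the mitochondrial share of the summed FPKM. The share was 59.3%, 57.4% and 47.1% in WT and 43.6%, 46.6% and 43.0% in Mc4r KO. Leaving it out set the groups further apart in that share, so that fit does not isolate atrial content. It called 726 of 17966 genes, beside 83 of 18035 with all libraries.

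**Figure D1:**
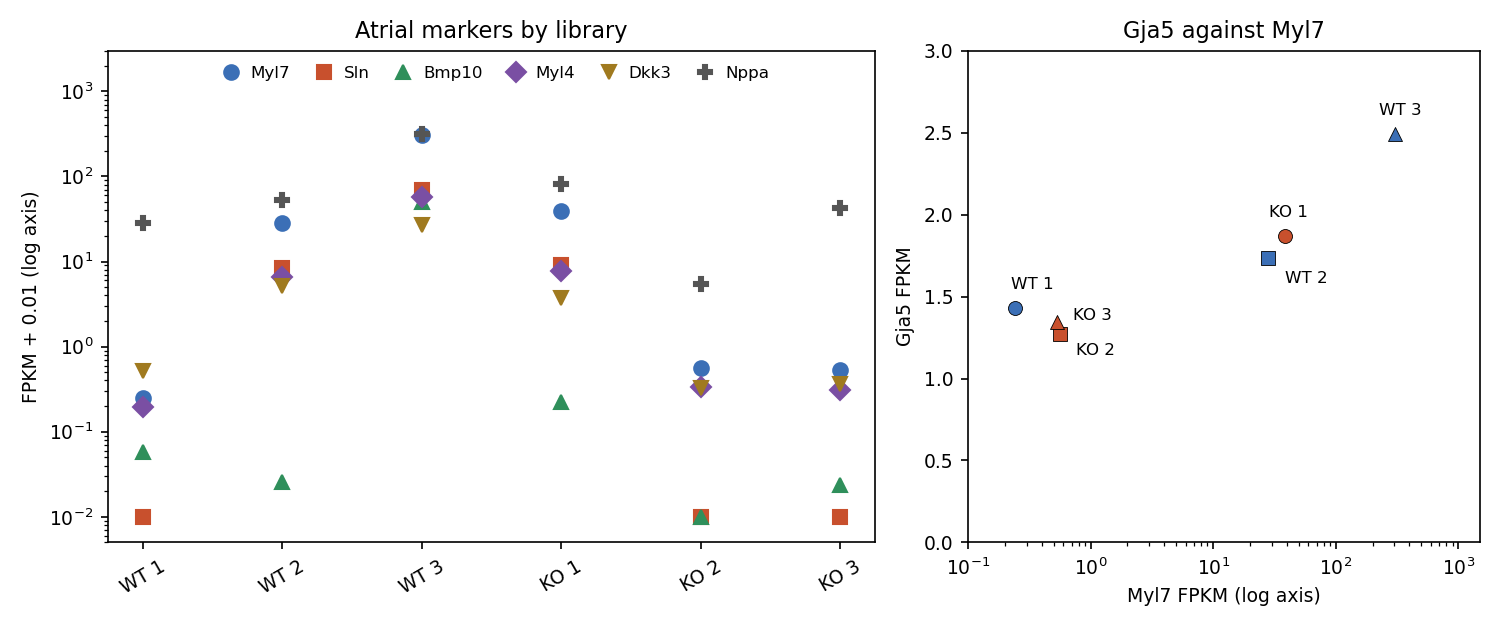
Left, FPKM of 6 atrial markers plus 0.01 on a log axis in each of the 6 libraries; right, Gja5 FPKM against Myl7 FPKM (log axis), with 1 point per library, WT in blue and Mc4r KO (KO) in orange. WT replicate 3 has the highest Myl7 (307) and the highest Gja5 (2.49), and the 3 libraries with Myl7 below 1 have the lowest Gja5 (1.27 to 1.43).

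In the WT hearts the levels of the 7 genes, averaged over 3 libraries, spanned from 39.1 FPKM for Gja1 to 0.21 for Scn3b. The order in the WT libraries was Gja1, Scn4b, Hcn2, Gjc1, Gja5, Hcn4 and Scn3b. Each gene lay above the next in all WT libraries, except that the ranges of Gja5 and Hcn4 overlapped. In the Mc4r KO libraries Hcn4 stood before Gja5, and its range overlapped that of Gjc1 and no longer that of Gja5. Measured against the 18035 genes tested, the mean level of Gja1 over the 6 libraries lay above 94.3% of them, that of Hcn4 above 54.3% and that of Scn3b above 7.59%.

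None of the 7 genes was called between the groups, against 83 genes or 0.46% of all genes tested. Of the 7, limma gave 2 an unadjusted p under 0.05, Gja1 and Hcn4, and these were also the only 2 whose groups did not overlap. Among all genes tested, 3761 had an unadjusted p under 0.05. The ranges of the groups did not overlap in 14.1% of all genes with higher values in Mc4r KO and in 12.4% with lower values, so 1 gene of 7 in each direction was close to that background. An adjusted p under 0.05 at any size of change was reached by 0.582% of all genes and by none of the 7. The median log2 fold change of the 7 genes was -0.12, beside -0.01 for all genes tested. In bulk tissue, fewer cells of a type and less RNA per cell cannot be told apart, which holds for every value here.

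**Figure D2:**
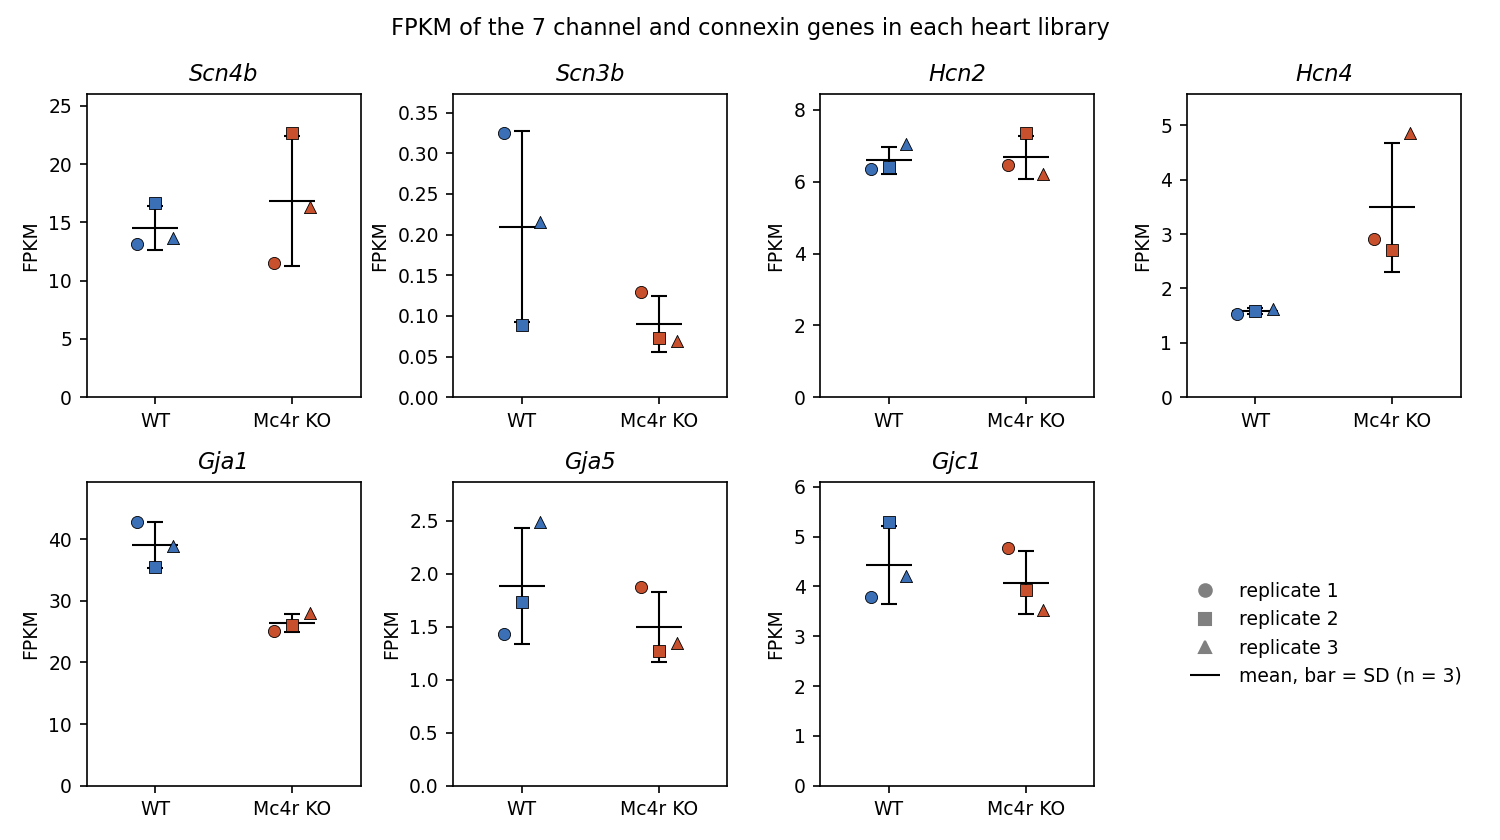
FPKM of the 7 genes in each library, with WT (blue) and Mc4r KO (orange) side by side, a symbol for each replicate, the mean as a horizontal line and the SD as a bar (n = 3 each); each panel has its own axis from 0. Gja1 (25.2 to 28.0 in Mc4r KO, 35.5 to 42.9 in WT) and Hcn4 (2.71 to 4.86 in Mc4r KO, 1.53 to 1.63 in WT) are the only genes whose groups do not overlap.

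Gja1 encodes Cx43, the main connexin of working ventricular muscle, which is also made by fibroblasts and other cells of the heart. Its exons (ENSMUSG00000050953, chr10:56377330-56402513, plus strand, GRCm38) share 0.0957% of their words of 50 bases with other genes, so few of its reads could be lost to copies. Hcn4 encodes the principal HCN channel of the sinoatrial node (ENSMUSG00000032338, chr9:58823412-58863175, plus strand) and shares no such word. The 250 bases before the RefSeq start of each gene (GRCm38.p6, plus strand) are shown because these were the members whose groups did not overlap. In the Gja1 window, chr10:56377050-56377299, capitals mark an AP-1 motif (TGANTCA), which begins 19 bases before the start. In the Hcn4 window, chr9:58822699-58822948, capitals mark 2 GC boxes (GGGCGG, here on the minus strand), which begin 196 and 163 bases before the start.
Gja1: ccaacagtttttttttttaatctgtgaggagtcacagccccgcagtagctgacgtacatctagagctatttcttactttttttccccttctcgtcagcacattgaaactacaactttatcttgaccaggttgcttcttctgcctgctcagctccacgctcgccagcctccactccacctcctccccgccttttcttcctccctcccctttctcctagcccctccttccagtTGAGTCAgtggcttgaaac
Hcn4: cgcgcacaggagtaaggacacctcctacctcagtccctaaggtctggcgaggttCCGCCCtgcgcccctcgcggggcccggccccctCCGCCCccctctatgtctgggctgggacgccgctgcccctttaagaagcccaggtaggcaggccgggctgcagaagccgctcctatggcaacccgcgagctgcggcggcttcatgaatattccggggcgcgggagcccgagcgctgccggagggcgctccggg
Motifs were searched on both strands without regard to overlap between different motifs, and a match is a description of the letters only. Of 32851 RefSeq promoter windows of this length, 6.75% held the AP-1 motif and 32.7% a GC box. Neither window held a TATAAA motif, found in 12.4% of the windows, or a CACGTG motif, found in 6.02%. G and C made up 50% of the Gja1 window and 71.2% of the Hcn4 window. Windows were found for 5 of the 7 genes, and among the other 3, Hcn2 held 3 GC boxes, Gja5 held 1 and Scn4b held none of the 4 motifs.

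Gja1 was at 42.9, 35.5 and 38.9 FPKM in WT and at 25.2, 26.0 and 28.0 in Mc4r KO. Every Mc4r KO library lay below every WT library, with 4010 to 4606 reads against 5223 to 6794. The group means were 39.1 ± 3.71 in WT and 26.4 ± 1.44 in Mc4r KO (SD, n = 3), so the Mc4r KO level was 67.6% of the WT level. The log2 fold change was -0.56 (SE 0.096, 95% confidence interval -0.79 to -0.34), and the limma adjusted p was 0.0579. Leaving out WT replicate 3 gave -0.56 again with an adjusted p of 0.0283, still short of the minimum size of change for a call. In that fit 1846 of 17966 genes had an adjusted p under 0.05, beside 105 of 18035 with all libraries. The unadjusted limma p of Gja1 was higher there, at 0.00157 beside 0.000576. Leaving out any other single library gave adjusted p from 0.114 to 0.210. With all 6 libraries the interval of Gja1 excluded a change of 0 and contained the threshold of -0.75.

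The scaling of the libraries entered this value. Mitochondrial transcripts took 59.3%, 57.4% and 47.1% of the summed FPKM in WT and 43.6%, 46.6% and 43.0% in Mc4r KO, so all Mc4r KO libraries were lower. With FPKM scaled to their sum outside the mitochondrial chromosome, the median of all genes moved to -0.19 on the log2 scale. Gja1 was then at -0.76, or -0.57 relative to that median, with an adjusted p of 0.0566. With the mitochondrial share as a covariate the log2 fold change was -0.55 and the adjusted p was 0.317.

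Fibroblast markers, listed because fibroblasts also make Cx43, were lower in part in the same libraries. Of 8 such genes, 3 had Mc4r KO values below all WT values, beside 12.4% of all genes tested, and none was called. Dcn, a small proteoglycan of the matrix and the most abundant of them, was at 125, 124 and 109 FPKM in WT and at 87.0, 77.1 and 83.0 in Mc4r KO. Lum, a related proteoglycan, and Pdgfra, a growth factor receptor of fibroblasts, were the other two. The summed fibroblast list was at 209, 219 and 223 FPKM in WT and at 182, 162 and 155 in Mc4r KO, and no marker was at 0 in all libraries. The part of these cells in the Gja1 value was not tested.

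Hcn4 was at 1.53, 1.58 and 1.63 FPKM in WT and at 2.92, 2.71 and 4.86 in Mc4r KO. All Mc4r KO libraries lay above all WT libraries, and the WT values were close together while Mc4r KO replicate 3 was well above the other two. These levels rested on 132 to 170 reads in the WT libraries and 252 to 477 in the Mc4r KO libraries. The group means were 1.58 ± 0.051 and 3.5 ± 1.19 (SD, n = 3), which is a 2.21-fold higher mean in Mc4r KO. The log2 fold change was 1.05 (SE 0.22, 95% confidence interval 0.53 to 1.57), and the limma adjusted p was 0.0796. Without Mc4r KO replicate 3 the log2 fold change was 0.79 with an adjusted p of 0.159.

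The call for Hcn4 depended on how the test was made. Limma voom on the recovered reads gave 1.10 with an adjusted p of 0.0263, so that tool called 1 of the 7 genes. Array weights (adjusted p = 0.0446) and protein-coding genes alone (adjusted p = 0.0432) also called it. These settings called more genes in general, with 324 of 18035 for limma voom, 435 of 18035 for array weights and 204 of 13546 for protein-coding genes alone, beside 83 of 18035. Over the 23 alternatives the log2 fold change ranged from 0.77 to 1.20, always higher in Mc4r KO, and the adjusted p ranged from 0.0263 to 0.498. The highest p came with the mitochondrial share as a covariate, where the log2 fold change was 0.83. In WT, Hcn4 was at 1.53, 1.58 and 1.63 FPKM where Myl7 was at 0.24, 28.1 and 307. In Mc4r KO, Hcn4 was at 2.92, 2.71 and 4.86 where Myl7 was at 38.8, 0.558 and 0.528. With Myl7 as a covariate, an alternative chosen after seeing the data, the log2 fold change of Hcn4 was 1.02 (adjusted p = 0.0999). The part of atrial tissue in the Hcn4 value was not tested.

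**Figure D3:**
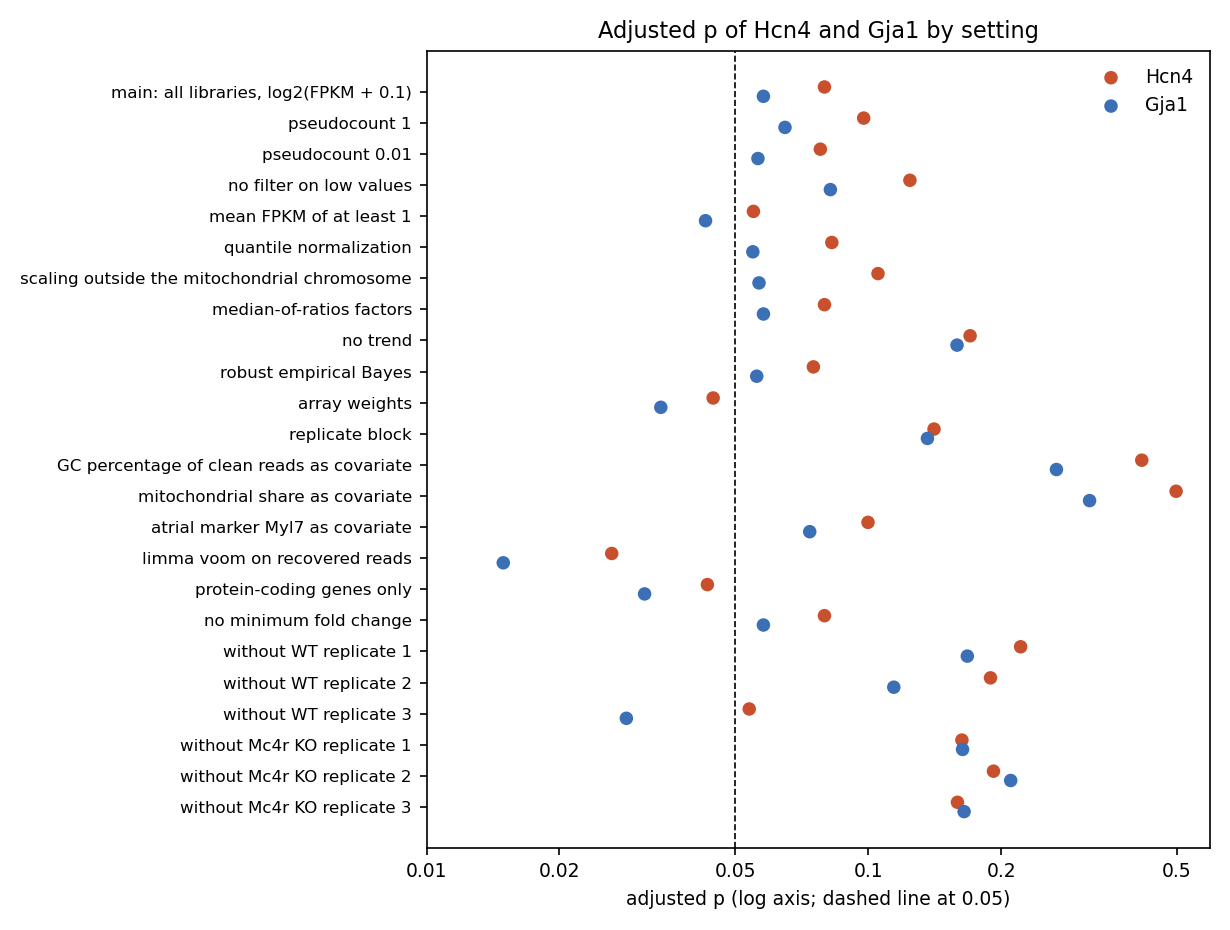
Limma adjusted p (log axis) of Hcn4 (orange) and Gja1 (blue) under the setting used in the text, in the top row, and under each of the 23 alternatives; the dashed line marks 0.05. Hcn4 lies left of the line under 3 alternatives and Gja1 under 5.

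Hcn2 encodes the HCN channel found through atrial and ventricular muscle (ENSMUSG00000020331, chr10:79716634-79736108, plus strand). It was at 6.35, 6.41 and 7.04 FPKM in WT and at 6.47, 7.35 and 6.22 in Mc4r KO, so the groups lay on top of each other. The log2 fold change was 0.02 (SE 0.10, 95% confidence interval -0.23 to 0.26, limma adjusted p = 0.95), which covers folds from 0.855 to 1.20. Its sign changed with the scaling and with the libraries left out. The ratio of Hcn4 to Hcn2 within a library does not depend on the scaling. That ratio was 0.241, 0.247 and 0.232 in WT and 0.451, 0.369 and 0.781 in Mc4r KO. The Mc4r KO ratios were 2.11-fold higher on average on the log scale and did not overlap the WT ratios. The difference of the mean log2 ratios was 1.08, or 0.77 without Mc4r KO replicate 3. The two-sided exact permutation test gave p = 0.1, the smallest that 3 libraries against 3 allow, and 0.3 after adjustment over 6 ratios, 4 of them between the 7 genes.

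Of the summed FPKM of the 4 HCN genes, Hcn4 took 19.1% ± 0.637 in WT and 33.5% ± 8.77 in Mc4r KO, and Hcn2 took 79.5% ± 0.724 and 65.2% ± 8.54 (SD, n = 3). Hcn3, another channel of the family, was at most at 0.067 FPKM. The summed level was 7.90, 8.10 and 8.89 in WT and 9.43, 10.3 and 11.2 in Mc4r KO, without overlap. Of 13 other HCN family members and partners listed, 6 were tested and limma called none. Cav3, a muscle caveolin that binds HCN4, was at 30.2, 28.3 and 40.2 FPKM in WT and at 48.6, 62.6 and 58.0 in Mc4r KO. Its log2 fold change was 0.78 (SE 0.157, limma adjusted p = 0.0744). Limma voom, array weights, protein-coding genes alone and the fit without WT replicate 3, which all called more genes in general, called Cav3.

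Conduction system genes were listed because Hcn4 marks that tissue. None of the 17 tested of 18 transcription factors was called by limma, with 2 higher and 2 lower in Mc4r KO without overlap (14.1% and 12.4% among all genes tested). Nkx2-5, a factor of heart muscle identity, was at 32.6, 36.5 and 42.9 FPKM in WT and at 50.4, 57.9 and 50.2 in Mc4r KO (limma adjusted p = 0.0983). Irx3, a factor of the ventricular conduction system, was at 6.52, 8.07 and 9.55 in WT and at 11.3, 10.01 and 14.7 in Mc4r KO (adjusted p = 0.153). The lower factors were Mef2c, which acts in muscle development, at 6.52, 5.82 and 5.10 in WT and 4.16, 4.77 and 3.66 in Mc4r KO (adjusted p = 0.136), and Etv1. Etv1, a factor of fast-conducting muscle that is also on the list of conduction system markers, was at 0.832, 1.18 and 1.20 in WT and at 0.795, 0.401 and 0.783 in Mc4r KO (adjusted p = 0.245). The nodal factors Shox2 and Isl1 were near 0, with Shox2 at most at 0.357 FPKM and Isl1 at most at 0.0148, and Tbx3 was between 1.91 and 3.41 with overlapping groups. Tbx18, on the same list, was at 1.86, 1.73 and 0.909 in WT and at 1.01, 0.725 and 0.766 in Mc4r KO. Its groups overlapped, with a log2 fold change of -0.73 (limma adjusted p = 0.210). None of the 13 tested of 16 conduction system markers was called by limma, with Cacna1g higher and Etv1 lower in Mc4r KO without overlap. Cacna1g, a T-type calcium channel of pacemaker cells, was at 1.53, 1.29 and 2.14 FPKM in WT and at 2.38, 2.80 and 3.36 in Mc4r KO (limma adjusted p = 0.12). Limma voom, array weights and the fit without WT replicate 3, which all called more genes in general, called Cacna1g. The summed FPKM of the conduction system markers were 76.2, 101 and 370 in WT and 132, 51.5 and 95.9 in Mc4r KO. The most abundant of them, Nppa, is also an atrial marker. Cntn2, a cell adhesion molecule of Purkinje fibres, was at 0.755, 0.718 and 0.738 in WT and at 0.852, 0 and 1.62 in Mc4r KO. The part of conduction tissue in the Hcn4 value was not tested.

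Gja5 encodes Cx40, the connexin of atrial muscle, the ventricular conduction system and arterial endothelium (ENSMUSG00000057123, chr3:96904693-97077416, plus strand). Its levels were 1.43, 1.73 and 2.49 FPKM in WT and 1.87, 1.27 and 1.35 in Mc4r KO, with 111 to 244 reads. The groups overlapped, with a log2 fold change of -0.30 (SE 0.237, limma adjusted p = 0.523). The 3 libraries with the most Gja5 were the 3 with the most Myl7, in the same order. Without WT replicate 3 the log2 fold change was -0.09, and with Myl7 as a covariate it was -0.11. Other alternatives moved it the other way, to -0.47 without WT replicate 1, to -0.84 with the GC percentage of the reads as a covariate and to -0.92 with the mitochondrial share as a covariate, and none called it. Of the exonic sequence of Gja5, 2.87% lay under exons of Gpr89 on the other strand and 13.2% of its words of 50 bases occurred in Zfp697, so its reads are uncertain to that extent.

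Arterial endothelial markers were listed for Gja5 and for Gja4, the other connexin of those cells. Of 10 such genes none was called, with 3 higher and 1 lower in Mc4r KO without overlap (14.1% and 12.4% among all genes tested), and the summed list was at 61.9, 62.9 and 58.6 FPKM in WT and 65.3, 57.9 and 52.8 in Mc4r KO. Nebl, the most abundant of them and also made by heart muscle, was at 26.3, 23.1 and 23.0 in WT and at 18.0, 18.6 and 18.5 in Mc4r KO. Sox17, a transcription factor of arterial endothelium, was at 4.21, 4.81 and 3.57 in WT and at 6.25, 5.26 and 5.04 in Mc4r KO. The part of these cells in the connexin values was not tested.

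Gjc1 encodes Cx45, a connexin of the nodes and the early conduction system (ENSMUSG00000034520, chr11:102799579-102819700, minus strand). It was at 3.78, 5.30 and 4.21 FPKM in WT and at 4.76, 3.92 and 3.53 in Mc4r KO, with overlapping groups. The log2 fold change was -0.12 (SE 0.166, 95% confidence interval -0.51 to 0.27, limma adjusted p = 0.727). The ratio of Gjc1 to Gja1 was 0.0883, 0.150 and 0.108 in WT and 0.189, 0.151 and 0.126 in Mc4r KO. These overlapped, and the exact permutation p was 0.2, or 0.3 after adjustment. The ratio of Gja5 to Gja1 gave an exact permutation p of 0.5 and an adjusted p of 0.6.

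Of the summed FPKM of the 20 connexin genes in the table, Gja1 took 65.9% ± 4.86 in WT and 55.9% ± 3.83 in Mc4r KO (SD, n = 3). The sum itself was 60.1, 55.3 and 62.6 in WT and 48.7, 45.8 and 47.3 in Mc4r KO, and the groups did not overlap. Its means were 59.3 and 47.3, beside 39.1 and 26.4 for Gja1 alone, so the sum repeats the difference in Gja1. Gja4, the connexin of arterial endothelium, took 10.9% ± 1.59 and 18.5% ± 3.95, from levels of 5.47, 6.40 and 7.56 in WT and 10.9, 8.52 and 6.88 in Mc4r KO. The Gja4 levels overlapped, with a log2 fold change of 0.42 and a limma adjusted p of 0.266. Gja3, best known from the lens, was at 6.18, 5.69 and 8.16 in WT and at 4.54, 5.0 and 6.73 in Mc4r KO. Of the 20 other connexins and pannexins, 8 were tested, none was called and 7 were at 0 in all libraries.

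Of 19 intercalated disc genes, which hold the connexins and their partners at the contacts between muscle cells, none was called, with 2 higher and 2 lower in Mc4r KO without overlap (14.1% and 12.4% among all genes tested). Dsp, a desmosomal linker, was at 121, 133 and 120 FPKM in WT and at 99.8, 94.8 and 100 in Mc4r KO (limma adjusted p = 0.0992). Dsc2, a desmosomal cadherin, was at 8.68, 9.28 and 10.5 in WT and at 5.88, 6.44 and 7.82 in Mc4r KO (adjusted p = 0.11). Des, the intermediate filament of muscle and the most abundant gene of the list, was at 312, 356 and 353 in WT and at 390, 449 and 418 in Mc4r KO. Xirp1, an actin-binding protein of the disc, was at 23.4, 31.8 and 27.3 in WT and at 36.0, 45.2 and 42.0 in Mc4r KO.

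Scn4b encodes the beta-4 subunit, which can act as a blocker of the open pore (ENSMUSG00000046480, chr9:45138395-45154152, plus strand). It was at 13.2, 16.6 and 13.7 FPKM in WT and at 11.5, 22.7 and 16.3 in Mc4r KO. The Mc4r KO libraries held both the lowest and the highest value, and their coefficient of variation was 33.2% beside 12.9% in WT. The log2 fold change was 0.17 (SE 0.234, 95% confidence interval -0.38 to 0.72, limma adjusted p = 0.724), and it changed sign without Mc4r KO replicate 2. Scn3b encodes the beta-3 subunit (ENSMUSG00000049281, chr9:40269217-40291618, plus strand) and had few reads, 25, 7 and 20 in WT and 11, 6 and 6 in Mc4r KO. These are 0.325, 0.0892 and 0.215 FPKM in WT and 0.130, 0.0723 and 0.0685 in Mc4r KO, with overlap. Its log2 fold change was -0.64 with an interval from -1.71 to 0.43 (limma adjusted p = 0.47). These values depend on the added 0.1, since Scn3b passed the filter on a mean FPKM of 0.21 in WT and 0.090 in Mc4r KO. With a pseudocount of 0.01 the log2 fold change was -1.02, with a pseudocount of 1 it was -0.15 and with limma voom it was -1.05, and none was called.

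**Figure D4:**
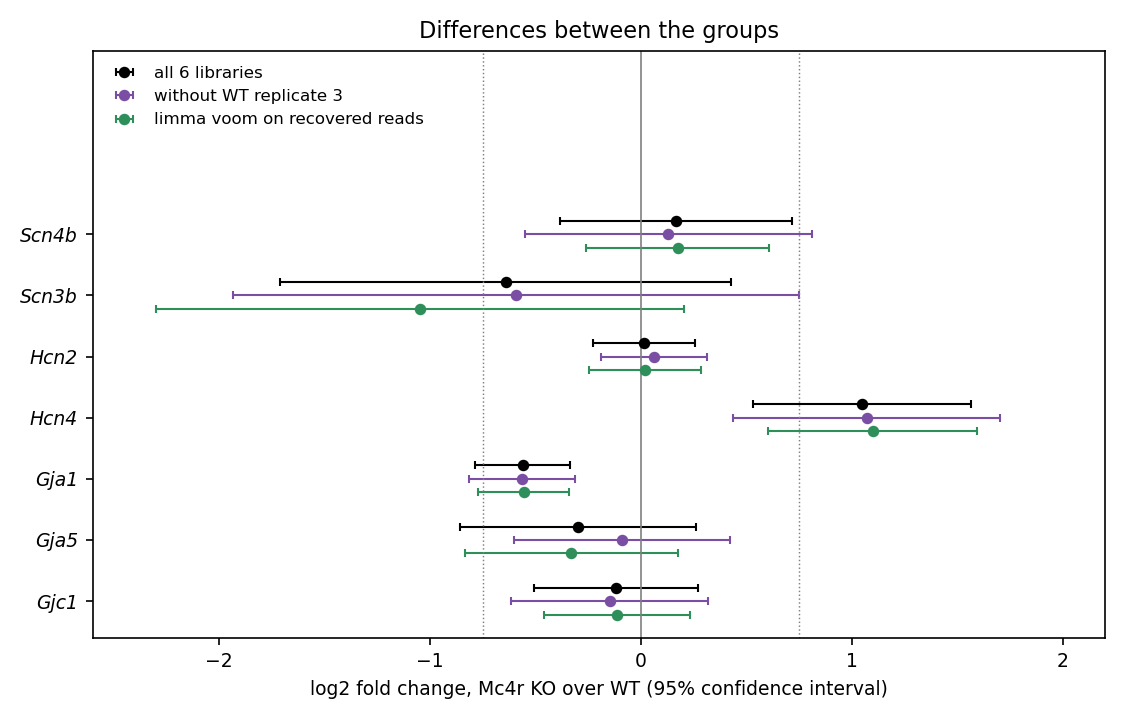
Log2 fold change of Mc4r KO over WT with its 95% confidence interval for the 7 genes, from limma on all 6 libraries (black), without WT replicate 3 (purple) and from limma voom (green); dotted lines mark -0.75 and 0.75. Of the 7 genes, Hcn4 (1.05) and Gja1 (-0.56) have intervals that leave out 0, Hcn2 (0.02) has a narrow interval around 0 and Scn3b (-0.64) the widest.

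The ratio of Scn3b to Scn4b within a library gave an exact permutation p of 0.2, or 0.3 after adjustment, with overlapping groups. Of the summed FPKM of the 4 beta subunits, Scn4b took 61.9% ± 3.88 in WT and 65.4% ± 8.87 in Mc4r KO (SD, n = 3). Of 12 other sodium channel subunits, 7 were tested and none was called. Scn7a, an atypical channel of the family that responds to sodium, was at 8.79, 6.46 and 8.04 in WT and at 5.57, 5.44 and 4.88 in Mc4r KO (limma adjusted p = 0.104).

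**Figure D5:**
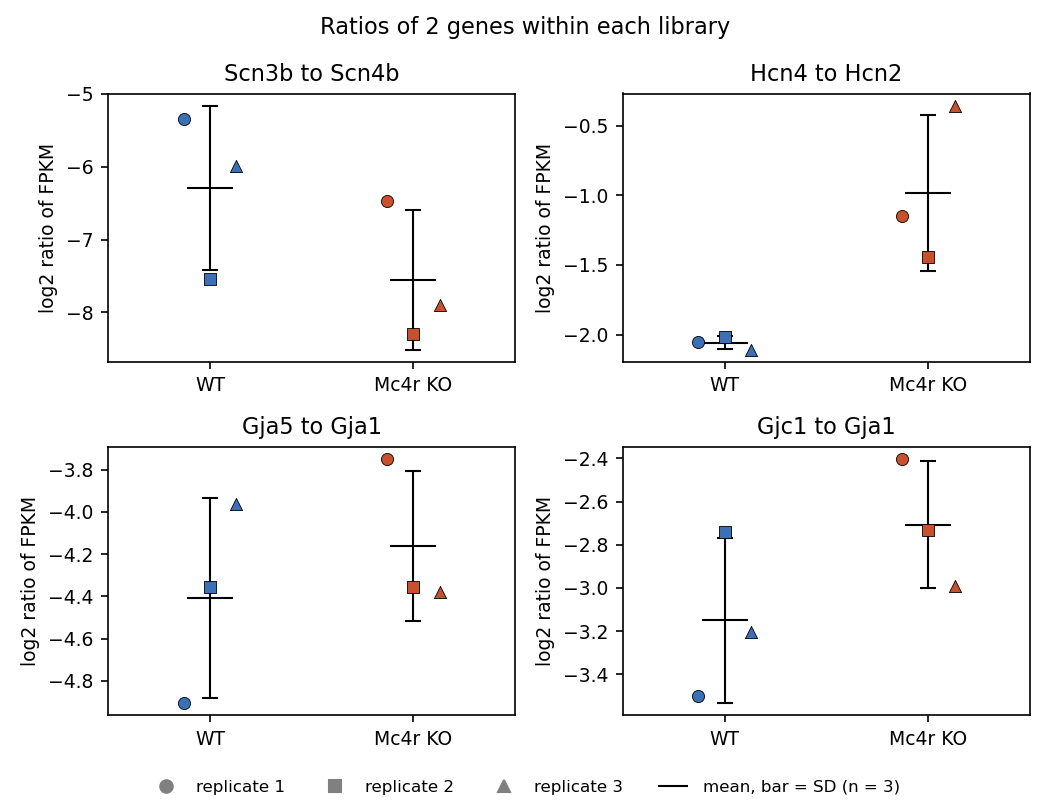
Log2 ratio of the FPKM of 2 genes within each library for the 4 ratios between the 7 genes, with a symbol for each replicate, the mean as a horizontal line and the SD as a bar (n = 3 each); each panel has its own axis, which does not start at 0. The groups do not overlap for Hcn4 to Hcn2 (mean -2.06 in WT and -0.98 in Mc4r KO) and overlap for the other 3 ratios.

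Among the 19 sodium channel partners, 18 were tested and 1 was called, which was also the only call among the 158 tested of the 198 genes of the 16 related lists. Of the 158, 36 had an unadjusted p under 0.05, beside 3761 of all 18035 genes tested. Limma voom on the recovered reads called 4 of them, among them Cav3, Cacna1g and Stmn2 (a stathmin), beside 324 of all 18035 genes. Limma without WT replicate 3 called 5 of 153 tested, beside 726 of all 17966 genes. Among these were Cav3, Cacna1g and Tcap, and Tbx18, which was lower in Mc4r KO. The count at an unadjusted p under 0.05 in limma was 7 among the sodium channel partners, 5 each among the intercalated disc genes and the endothelial markers, and 4 each among the conduction system factors and the arterial markers. It was 3 each among the cardiomyocyte and fibroblast markers, 2 each among the atrial and the smooth muscle markers, and 1 each among the other sodium channel subunits, the HCN partners, the conduction system markers and the ventricular markers. It was 0 among the other connexins, the skeletal muscle markers and the nerve markers.

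Of the 18 sodium channel partners tested, 4 were higher and 4 lower in Mc4r KO without overlap (14.1% and 12.4% among all genes tested). Tcap, which caps titin at the Z disc, was at 911, 1215 and 1576 FPKM in WT and at 1656, 1780 and 2223 in Mc4r KO, and Calm3, a calmodulin gene, at 56.3, 59.8 and 65.6 in WT and at 78.5, 81.8 and 73.6 in Mc4r KO. Lower values were seen for Nedd4, a ubiquitin ligase, with 56.2, 57.9 and 49.1 in WT and 42.8, 44.5 and 46.9 in Mc4r KO. Fgf13, an intracellular modulator of sodium channels, was at 15.5, 15.6 and 12.4 in WT and at 10.2, 10.4 and 10.3 in Mc4r KO (limma adjusted p = 0.0932). Cardiomyocyte markers were high in all libraries and none of the 8 was called, with 2 higher and 0 lower in Mc4r KO without overlap, and their summed FPKM were 11745, 12036 and 10969 in WT and 13787, 15423 and 14397 in Mc4r KO, without overlap. Actc1, cardiac actin and the most abundant of them, was at 5495, 5470 and 4568 in WT and 7123, 8307 and 7188 in Mc4r KO. The part of muscle cell content in these values was not tested.

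Among the remaining lists, none of the 12 endothelial markers was called, with 4 higher and 1 lower in Mc4r KO without overlap (14.1% and 12.4% among all genes tested). None of the 11 smooth muscle and pericyte markers was called, with 1 higher and 0 lower without overlap. Of 13 peripheral nerve and ganglion markers, 7 were tested and none was called, and the defining genes Th, Chat and Slc18a3 were at 0 in all libraries.

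The genes most like each member across the 6 libraries were found by the root mean square difference of their centred log2(FPKM + 0.1) profiles, over the 11297 genes whose mean FPKM was 1 or more. For Gja1 these were Klf6, a zinc finger transcription factor, at 0.0402 and Gm26795 at 0.0502, and for Hcn4 they were Rasl10a, a small GTPase, at 0.173 and Gm11585 at 0.175. Klf6 averaged 24.3 FPKM in WT and 15.7 in Mc4r KO, with a limma adjusted p of 0.0479 and a log2 fold change of -0.63. Rasl10a averaged 1.54 in WT and 3.77 in Mc4r KO, with an adjusted p of 0.0554. The profiles used to choose these genes contain the difference between the groups. The differences and p-values of Klf6 and Rasl10a therefore follow from that choice and are no separate support. Gja5 was most like Reck, at 0.0661, and Eef1akmt2, at 0.0878, and Gjc1 was most like Urb1, at 0.0499, and Dtx3l, at 0.0576. Hcn2 was most like Elmsan1, at 0.0327, and Lrrfip1, at 0.0332, which like it hardly varied. Scn4b was most like Srrm4, at 0.107, and Katna1, at 0.134, and Scn3b was most like Hsbp1l1, at 0.155, and Gm45819, at 0.162. Among the 7 genes themselves, Hcn2 and Gjc1 were closest, at 0.218, and Scn3b and Hcn4 farthest apart, at 0.979. These distances are descriptions over 6 libraries that share their scaling.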

How the data were processed

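RNA of 6 mouse hearts was enriched for polyadenylated transcripts by the authors, who aligned the reads with HISAT2 (2.0.5, build mm10 per the submitters' processing notes), counted them on genes, tested the groups with DESeq2 and deposited FPKM for each gene and library. The authors' use of strand and annotation release are not given in the sources used here. Gene lengths and positions of the named members equal those of GENCODE M21. FPKM times gene length gave whole reads (within 0.05 reads) for 100% of values. Counting error only is covered by the floor of 3 reads.

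Because the deposited unit is FPKM, limma (3.58.1, R 4.3.3) on log2(FPKM + 0.1) with the empirical Bayes trend, all 6 libraries and no covariate stood in for a count test. Genes entered at a mean FPKM of 0.1 or more, with two-sided p-values and Benjamini-Hochberg adjustment over 18035 genes. The thresholds are those of the study's methods, which give no base for the logarithm, while a legend of the study states another minimum fold. The paper gives 3 animals per group, and the labels number the replicates without naming animals. Ratios used the exact permutation test (scipy 1.17.1). The fits were tested on simulated data, and no result given here rests on that. The replicate numbers were not treated as pairs.

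The 7 members and the 16 related lists (other sodium channel subunits, HCN channels, connexins and pannexins, sodium channel partners, intercalated disc genes, conduction system factors and markers, and markers of 9 cell types or chambers) were chosen with earlier results of these data known. Named genes are the members, genes called, up to 3 genes of highest mean FPKM per list, and the 2 most similar genes per member. Markers of cell types that moved or were at 0, and list genes without overlap, were chosen with their values known. Tried as alternatives were pseudocounts of 1 and 0.01, dropping the filter, a mean FPKM of at least 1, quantile normalization, 2 other scalings, no trend, robust empirical Bayes, array weights, a replicate block, 3 covariates (GC percentage of the reads, mitochondrial share and Myl7, the last chosen after seeing the data), limma voom on recovered reads, protein-coding genes only, no minimum fold change, and leaving out each library. Promoter windows came from RefSeq. Protein sequences are not used here. Some results for single genes, and 2 of the 6 ratios, are not reported here.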

Additional observations from a re-analysis of the deposited data

How the results depend on the processing

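Of the 23 alternatives, Hcn4 was higher in Mc4r KO and Gja1 lower in all 23. None called Gja1, which had an adjusted p under 0.05 in 5. The number of members called was 1, Hcn4, with array weights (log2 fold change 1.06), limma voom (1.10) and protein-coding genes only (1.05), and 0 otherwise. Leaving out single libraries gave log2 fold changes from 0.79 to 1.20 for Hcn4, -0.63 to -0.49 for Gja1, -0.47 to -0.09 for Gja5 and -0.96 to -0.38 for Scn3b. Over all alternatives Scn3b ranged from -1.05 with limma voom to -0.15 with a pseudocount of 1, and it was not tested with a mean FPKM of at least 1. The sign of Scn4b turned with scaling outside the mitochondrial chromosome (-0.026), and without single libraries it ranged from -0.072 to 0.41, the lowest without Mc4r KO replicate 2. Hcn2 turned with quantile normalization (-0.027), scaling outside the mitochondrial chromosome (-0.18), the GC percentage (-0.060) and the mitochondrial share (-0.040) as covariates, and ranged from -0.054 to 0.065 without single libraries. Gjc1 ranged from -0.23 to 0.016 without single libraries, the highest without WT replicate 2, and was lowest, at -0.31, with scaling outside the mitochondrial chromosome. Gja5 was at -0.84 with the GC percentage and -0.92 with the mitochondrial share as a covariate, at adjusted p of 0.332 and 0.337.

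The number of all genes called, 83, became 44 with a pseudocount of 1, 22 without a filter, 147 at a mean FPKM of at least 1, 49 with quantile normalization, 21 without trend, 435 with array weights, 1 with the GC percentage, 2 with the mitochondrial share and 31 with Myl7 as a covariate, 324 with limma voom and 204 with protein-coding genes only. Scaling outside the mitochondrial chromosome gave 41, with 16 higher and 25 lower beside 57 and 26. Without single libraries it ranged from 7 to 726, the highest without WT replicate 3 and at most 14 without any other. The count of related genes called, 1, became 0 without trend, with the GC percentage or with the mitochondrial share, 3 with array weights, 4 with limma voom, 2 with protein-coding genes only, and 0 to 5 without single libraries. With the replicate block 11 genes, 0 members and 0 related genes were called; deviations of same-numbered libraries correlated at -0.141, 0.007 and -0.082 over genes, so the numbers were not taken as pairs. The causes of these changes were not tested. Scn3b had the fewest reads of the 7 genes, with 6 to 25 per library, and its depth and replicate spread both limit its values.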
